A study of Mus musculus with 6 samples.

Results

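The c-Myc peak list of PB115 was set against the c-Myc peak list of PB119, site by site. Both names denote mouse lung cancer cell lines. The PB115 list held 7830 peaks and the PB119 list 13527, which makes 21357 of the 26525 peaks in the 3 lists of the series. Peaks were matched where they overlapped by at least 1 bp, and 6837 pairs of 1 PB115 peak and 1 PB119 peak, neither touching a further peak of the other list, are called common pairs. The series has 6 samples, a chromatin immunoprecipitation (ChIP) library and an input library of each of 3 lines, PB115, PB119 and PB120, all from cells fixed with formaldehyde, with the c-MYC antibody D3N8F in the ChIP libraries. The labels used here give no genotype, treatment or passage for any line, and say nothing of how the lines were derived. There was 1 ChIP library per line, so no difference below could be set against a spread between replicates, and no test was run. Peak lists hold no marker of cell type, so the labelled tissue could not be checked.

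The transcription factor c-Myc pairs with its partner Max through a leucine zipper, and the pair contacts DNA with basic regions that prefer the E-box CACGTG and close variants such as CACGCG. It occupies mostly promoters in CpG islands, and genes for ribosome assembly, translation, nucleotide synthesis and mitochondrial biogenesis are its best known targets. In lung cancer the MYC family is amplified or highly expressed in a share of small cell tumours. The comparison asks how alike the sites, their order of occupancy and their summits were in these lines, and which genes held the exceptions.

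Before the values, 8 stretches of promoter sequence show the kinds of site compared, each reaching 60 bases to either side of the summits as far as the promoter windows allowed. They were taken from RefSeq promoter windows of GRCm38.p6 (250 bases before to 50 after the annotated start), are printed 5′ to 3′ on the strand of the gene, and carry the E-box CACGTG in capitals, as well as its variant CACGCG read on either strand. The first pair, at Crebrf, chr17:26715562-26715697 (plus strand), and Spring1, chr5:118245038-118245165 (plus strand), stood higher in the PB115 order. The next pair, at Lsm14a, chr7:34389713-34389833 (minus strand), and Kctd6, chr14:8214020-8214130 (plus strand), stood higher in the PB119 order. Tbrg4, chr11:6626018-6626121 (minus strand), is among the most occupied promoters of both lines. Stau1, chr2:166996366-166996486 (minus strand), had a peak in the PB115 list and not in the PB119 list. Sar1b, chr11:51763602-51763712 (plus strand), and Rer1, chr4:155086412-155086532 (minus strand), had one in the PB119 list and not in the PB115 list. The peaks at Stau1 and Rer1 also overlapped a PB120 peak.
Crebrf: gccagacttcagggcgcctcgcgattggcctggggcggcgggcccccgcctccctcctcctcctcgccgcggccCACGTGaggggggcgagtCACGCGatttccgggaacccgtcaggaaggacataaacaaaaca
Spring1: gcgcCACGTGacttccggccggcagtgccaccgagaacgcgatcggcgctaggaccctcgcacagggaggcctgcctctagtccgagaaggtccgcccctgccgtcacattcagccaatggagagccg
Lsm14a: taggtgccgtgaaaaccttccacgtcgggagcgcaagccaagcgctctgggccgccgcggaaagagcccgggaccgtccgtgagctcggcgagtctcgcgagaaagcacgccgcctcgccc
Kctd6: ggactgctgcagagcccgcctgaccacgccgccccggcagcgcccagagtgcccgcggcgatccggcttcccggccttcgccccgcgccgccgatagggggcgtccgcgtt
Tbrg4: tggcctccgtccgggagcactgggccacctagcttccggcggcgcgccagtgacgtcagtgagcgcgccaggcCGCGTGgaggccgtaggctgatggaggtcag
Stau1: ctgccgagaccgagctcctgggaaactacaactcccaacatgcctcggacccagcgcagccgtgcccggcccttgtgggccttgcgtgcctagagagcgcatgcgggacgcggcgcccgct
Sar1b: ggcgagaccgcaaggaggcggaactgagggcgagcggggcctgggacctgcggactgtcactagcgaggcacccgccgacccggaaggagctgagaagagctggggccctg
Rer1: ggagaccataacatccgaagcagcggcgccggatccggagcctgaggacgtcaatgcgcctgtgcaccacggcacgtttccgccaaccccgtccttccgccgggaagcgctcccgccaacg
In Crebrf the PB115 summit fell on base 76 and the PB119 summit on base 61 of the printed stretch, and its CACGTG starts at base 75. In Spring1 the summits fell on base 61 in PB115 and base 68 in PB119, with CACGTG at base 5. Tbrg4 holds CGCGTG and no CACGTG, while the printed stretches of Lsm14a, Kctd6, Stau1, Sar1b and Rer1 hold neither. CACGTG reads the same on both strands and was found in 7.84% of the 21237 promoter windows of coding genes, and CACGCG or CGCGTG, counted apart from it, in 12.1%. A match is a description of letters, not a bound site.

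The ChIP libraries had nearly the same depth, 40494386 tags in PB115 and 40726886 in PB119. The input libraries did not, with 28380432 tags in PB115 and 37979638 in PB119. The authors' pileup was scaled to input depth, so the same number of fragments gave a lower pileup in PB115. The part of this in the number and length of listed peaks, and so in the PB119-only peaks and genes, was not tested. The height of a peak is given as ChIP fragments covering its summit, which follow from the authors' pileup. The median summit held 49 fragments in PB115 (quartiles 40 and 65, range 24 to 294) and 43 fragments in PB119 (quartiles 34 and 60, range 19 to 282). Input reached over 5 times its genome-wide level at 19 PB115 peaks and 49 PB119 peaks. The highest pileups of both lists lay at such a place, the ribosomal RNA repeat Rn18s-rs5 on chromosome 17. There 4 PB115 peaks with 294, 290, 273 and 164 fragments fell under 1 PB119 peak with 282 fragments, at 64.0, 46.0, 41.0 and 36.7 times genome-wide input in PB115 and 46.4 times in PB119. Reads of a repeat come from many copies, so the position of such peaks is uncertain.

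At the common sites the fragment counts of PB115 and PB119 scattered by less than binomial counting error, although the labels name them as different lines. PB115 supplied 46.7% of all fragments in the common pairs. The exact 95% interval of PB115's share of a single pair's fragments included that overall value in 6703 of 6837 pairs (98.0%). It lay above in 75 pairs (1.1%) and below in 59 pairs (0.863%). Around the overall share the mean squared deviation of the counts, which is 1 for binomial counting error alone, was 0.774 for PB115 and PB119. It was 3.09 for PB115 and PB120 (3662 pairs) and 3.70 for PB119 and PB120 (4163 pairs), which share a library with the first comparison and are given as a scale. Summit counts are local maxima, 1 tag was kept per position, and both sites of a pair had to pass the authors' cutoff. How far these choices lower the scatter was not tested. Input recovered at the common pairs was close to even between chromosomes. The rest of the genome was not looked at. The lowest recovered input was 1.00 times the genome-wide level in both lines, so places of low input could not show. The median log2 ratio of input, PB115 over PB119, ranged over 20 chromosomes from -0.02 on chromosome 15 to 0.07 on chromosome 8. At the pairs with PB120 the range, over 19 chromosomes, was -0.35 to -0.06 for PB115 over PB120 and -0.44 to -0.08 for PB119 over PB120. The lists were kept apart, as labelled. Whether the libraries come from independent lines, from related cells or from the same chromatin is not given by the labels used here and was not tested, so each difference below is one between 2 libraries and not shown to be one between lines.

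**Figure D1:**
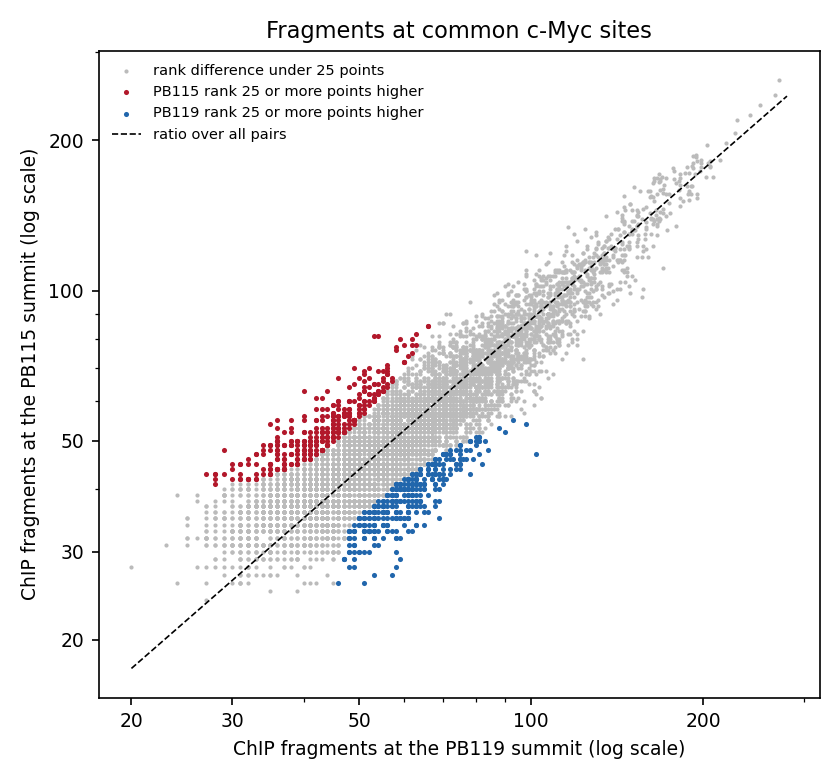
ChIP fragments at the summit of each of the 6837 common pairs, with 1 line on each axis and log scales. Most points lie in 1 narrow band, with PB119 above PB115 in 75.9% of pairs, and the exact interval of a pair's share leaves out the overall share in 134 pairs.

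Nearly all PB115 sites were in the PB119 list, while a large share of PB119 sites had no PB115 peak. Of the PB115 peaks, 7661 of 7830 (97.8%, Wilson 95% interval 97.5 to 98.1) overlapped a PB119 peak. Of the PB119 peaks, 7306 of 13527 (54.0%, 53.2 to 54.8) overlapped a PB115 peak. That left 169 PB115-only peaks (2.16% of their list) and 6221 PB119-only peaks (46.0% of theirs). Intervals here and below cover counting error only. With the PB119 list cut by pileup to the length of the PB115 list, the shares were 85.9% for PB115 and 81.1% for PB119.

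The peaks without a partner came from the low end of the PB119 order. When the PB119 list was ordered by pileup and divided into 10 bins of equal size, 99.6%, 99.1% and 94.2% of the top 3 bins were in the PB115 list. The share was 60.7% in the fifth bin, 42.6% in the sixth and 5.40% in the lowest. For PB115 it stayed between 100% in the highest bin and 92.5% in the lowest. The highest PB119 peak absent from PB115 stood at place 40 with 187 fragments, inside Sfi1 on chromosome 11, at 28.7 times genome-wide input. With peaks over 5 times input set aside, the first absent peak stood at place 2109, with 73 fragments inside Cacybp, which encodes a calcyclin-binding protein. At the edge of the matching rule, the smallest overlaps within a pair were 20, 33 and 38 bp. The nearest unmatched peaks lay 54, 67 and 76 bp from a PB119 peak for PB115, and 6, 12 and 14 bp from a PB115 peak for PB119.

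**Figure D2:**
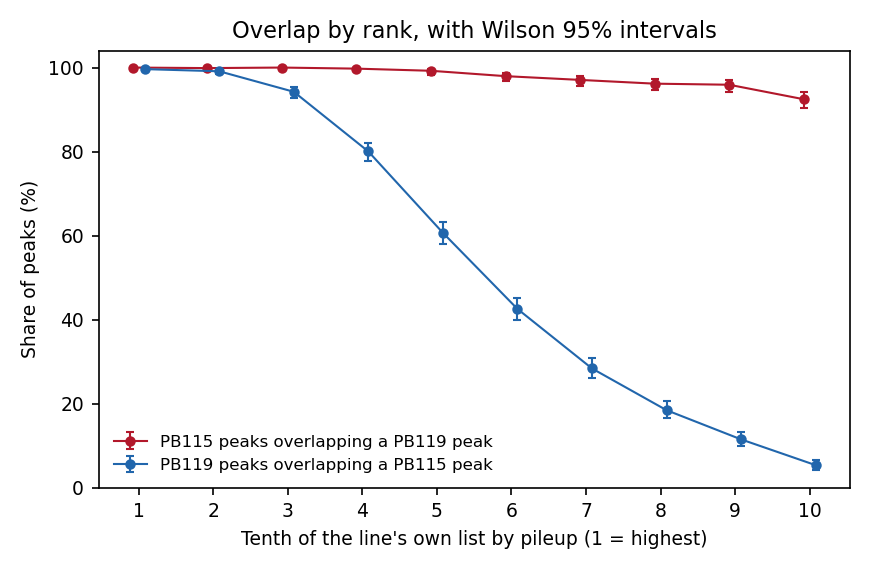
Share of peaks that overlap a peak of the other line, in 10 bins of equal size of each list ordered by pileup from highest to lowest, with Wilson 95% intervals over peaks. PB115 stays at or above 92.5% throughout, and PB119 ends at 5.40%.

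Peaks were mostly longer in PB119, and 2.81% of PB119 peaks covered more than 1 PB115 peak. In the common pairs the median length was 271 bp in PB115 and 396 bp in PB119, and the PB119 peak was the longer in 5958 pairs (87.1%). In 380 places 1 PB119 peak spanned 2 or more PB115 peaks, 361 of them with 2, 15 with 3 and 4 with more. The reverse, 1 PB115 peak over 2 PB119 peaks, occurred 51 times. At Klf16, a zinc finger repressor gene on chromosome 10, 6 PB115 peaks with 57, 29, 31, 51, 190 and 40 fragments lay under 1 PB119 peak with 196 fragments (mm10 chr10:80576321-80578721). At E2f3, a cell cycle transcription factor gene on chromosome 13, 4 PB115 peaks with 38, 39, 34 and 36 fragments lay under 1 PB119 peak with 60 fragments. A list can thus hold more peaks over the same ground. Npm1, the nucleophosmin gene, had 178 and 89 fragments at neighbouring PB115 peaks, and the single PB119 peak across them had 179 fragments.

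The order of sites by fragments was much alike. Spearman's rank correlation of pileup was 0.865 over the 6837 common pairs, given as a description because all pairs come from the same 2 ChIP libraries. It was 0.702 for the authors' fold over input and 0.487 for input itself, relative to its genome-wide level. Of the 100 pairs highest in PB115, 82 were among the 100 highest in PB119, and of the 500 highest, 412 (82.4%) were. The highest pairs within 1000 bp of an annotated gene end were at Pemt (phosphatidylethanolamine methyltransferase, 235 fragments in PB115 and 251 in PB119), Uspl1 (a SUMO protease, 225 in PB115 and 241 in PB119) and Ncl (nucleolin, 207 in PB115 and 227 in PB119). Next came Tbrg4 (a mitochondrial RNA regulator, 198 in PB115 and 219 in PB119) and B3galt6 (a galactosyltransferase, 183 in PB115 and 214 in PB119, at a site shared with Sdf4). Of these 5, B3galt6 alone had a rank difference other than 0, at -0.0658 points.

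Ranks were compared as percentiles over the common pairs, from 0 for the lowest to 100 for the highest, and the difference is PB115 minus PB119. The median size of that difference was 7.97 points. It reached at least 25 points toward PB115 in 351 pairs (5.13%) and at least 25 points toward PB119 in 380 pairs (5.56%). The exact interval of the fragment share lay above the overall share in 64 of the 351 and below it in 38 of the 380. Large differences sat in the crowded lower and middle ranks: in 4 groups of equal size by mean rank, lowest first, 68, 200, 81 and 2 pairs stood toward PB115 and 85, 217, 78 and 0 toward PB119. Input did not move with the difference (rank correlation of rank difference and log2 input ratio 0.000772 over 6837 pairs). Ranked by fold, 812 pairs stood that far toward PB115 and 794 toward PB119. Ranked within the whole lists, which differ in length, 9 stood toward PB115 and 1999 toward PB119.

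A coding gene was tied to a pair when both summits lay within 1000 bp of the same annotated end. This gave 4731 genes at 3971 pairs. Among them 144 (3.04%) stood at least 25 points toward PB115 and 293 (6.19%) toward PB119, with a median of -0.86 points. The genes named next were chosen for the size of their difference, and every one was occupied in both lines. Their intervals rest on the same counts that picked them. Values and intervals are thus a description and lend no support to a difference.

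Toward PB115, Gatad2b, which encodes a subunit of the NuRD chromatin remodelling complex, had 63 fragments in PB115 (exact Poisson 95% interval 48.4 to 80.6) and 40 in PB119 (28.6 to 54.5), a rank difference of 58.2 points. Crebrf, a regulator of CREB3 proteins, had 61 fragments in PB115 and 42 in PB119 (52.1 points). Spring1, needed for processing of the sterol regulators SREBP, had 67 fragments in PB115 and 46 in PB119 (50.1 points) at a site shared with Rnft2. Ngrn (neugrin, needed for the mitochondrial ribosome) had 54 fragments in PB115 and 35 in PB119, with Ttll13 at the same site. Pdk2, a kinase that restrains pyruvate dehydrogenase, had 61 in PB115 and 43 in PB119, and Ucp2, a mitochondrial carrier, had 51 in PB115 and 36 in PB119. Others were Nanp (sialic acid synthesis, 48 fragments in PB115 and 29 in PB119), Clba1 (52 in PB115 and 38 in PB119), Naa15 (an N-terminal acetyltransferase subunit, 55 in PB115 and 42 in PB119), Mapk8ip3 (a kinase scaffold, 59 in PB115 and 45 in PB119) and Zxdc (49 in PB115 and 35 in PB119). The intervals of the fragment share included the overall share for Naa15 and Mapk8ip3 and lay above it for the other genes named here. Ranked by fold, Ngrn (5.65 points) and Ucp2 (17.8) no longer reached 25 points. Their input was 2.49 and 1.90 times genome-wide in PB115, against 1.42 and 1.28 times in PB119, and its part in the difference was not tested.

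Toward PB119, Klhl22, an adaptor of a CUL3 ubiquitin ligase, had 35 fragments in PB115 (24.4 to 48.7) and 69 in PB119 (53.7 to 87.3), a rank difference of -57.8 points. Lsm14a, an RNA-binding protein of P-bodies, had 34 fragments in PB115 and 65 in PB119 (-54.8 points). Fbxo31, an F-box ubiquitin ligase subunit, had 33 in PB115 and 62 in PB119, and Kctd6, another CUL3 adaptor, had 34 in PB115 and 63 in PB119. H1f4, a linker histone, also had 34 fragments in PB115 and 63 in PB119. The other 7 were Ogfod2 (29 fragments in PB115 and 59 in PB119), Zfp28 (a zinc finger protein, 36 in PB115 and 66 in PB119, at a site shared with Zfp78), Nsmce4a (a subunit of the SMC5/6 complex, 37 in PB115 and 68 in PB119), Ndufv2 (a subunit of respiratory complex I, 28 in PB115 and 58 in PB119), Ints8 (a subunit of the Integrator complex, 33 in PB115 and 61 in PB119), Eml4 (a microtubule-binding protein, 36 in PB115 and 65 in PB119) and Pacc1 (a proton-activated chloride channel, 32 in PB115 and 59 in PB119). In all 12 the interval of the fragment share lay below the overall share. Ranked by fold, Ogfod2 (-6.67 points) and Pacc1 (-12.8) no longer reached 25 points. Input at both was higher in PB119, at 1.24 and 1.62 times genome-wide in PB115 and 2.52 times in PB119 at each gene, and its part was not tested.

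**Figure D3:**
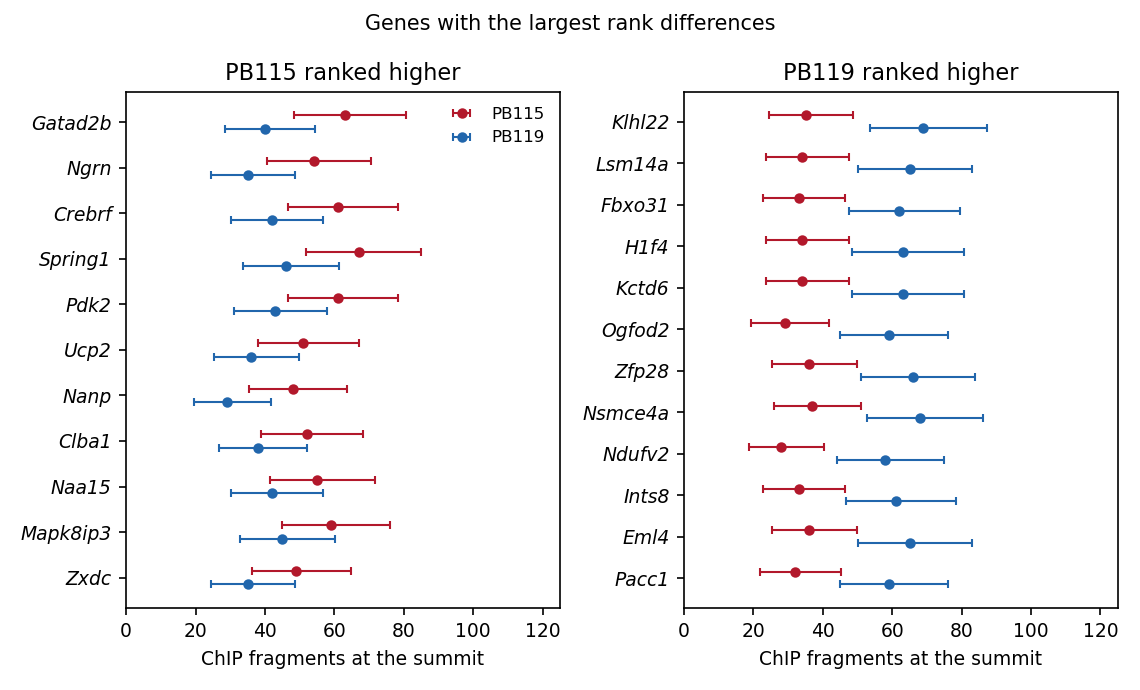
ChIP fragments at the summit in PB115 and PB119 for the genes named above, those with the largest rank difference toward PB115 on the left and toward PB119 on the right, with exact Poisson 95% intervals. The PB115 interval of Klhl22 (24.4 to 48.7) and the PB119 interval of the same gene (53.7 to 87.3) do not overlap, while those of Gatad2b do. The genes were picked by these same counts, so the intervals are a description.

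Gene lists were counted beside all 4731 tied genes, of which 3.04% stood toward PB115 and 6.19% toward PB119. Of 34 tied ribosome biogenesis genes, 0 stood toward PB115 and 2 toward PB119, with a median of -0.0037 points. The 2 were Noc2l (40 fragments in PB115 and 60 in PB119, -31.3 points) and Wdr74 (55 in PB115 and 93 in PB119, -25.8 points). Of 42 ribosomal protein genes, Rps27 (58 in PB115 and 50 in PB119, 29.9 points) stood toward PB115 and Rpl34 (32 in PB115 and 53 in PB119, -37.5 points) toward PB119. Of 30 translation factor and tRNA synthetase genes, Sars (44 in PB115 and 36 in PB119, 27.5 points) stood toward PB115 and the elongation factor gene Eef2 (43 in PB115 and 70 in PB119, -36.5 points) toward PB119. The highest summit of each line at the ends of Eef2, paired or not, had 51 fragments in PB115 and 70 in PB119. None of 24 nucleotide and polyamine genes passed 25 points in either direction. Amd1, which makes a polyamine precursor, had 49 fragments in PB115 and 72 in PB119, and Odc1, the first enzyme of polyamine synthesis, had 63 in PB115 and 101 in PB119. None of 23 mitochondrial import and chaperone genes, 7 glycolysis genes, 10 Myc and Max network genes, 6 mitotic genes or 6 apoptosis genes passed it either. The interval of the fragment share lay below the overall share for Wdr74 and Odc1, and included it for the other genes named so far in this paragraph. It also lay below for the tRNA synthetase gene Gars (73 fragments in PB115 and 123 in PB119) and the mitochondrial gene C1qbp (97 in PB115 and 156 in PB119). No other tied gene of the lists lay below, against 53 of all 4731 tied genes (1.12%). No list had a tied gene with its interval above the overall share, against 21 of all 4731 tied genes (0.444%).

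Among the other lists, 1 of 16 cell cycle and replication genes stood toward PB115, Gins2 of the replicative helicase, with 52 fragments in PB115 and 43 in PB119 (35.0 points). The Notch target Hes1 (45 fragments in PB115 and 39 in PB119, 26.1 points) was the 1 of 7 tied neuroendocrine and lineage genes, and the lysosomal protease gene Ctsa (50 in PB115 and 40 in PB119, 36.9 points) the 1 of 15 lysosome and autophagy genes. The highest summit of each line at the ends of Hes1, paired or not, had 45 fragments in PB115 and 43 in PB119. Of 14 circadian clock genes, Clock (44 fragments in PB115 and 66 in PB119, -28.4 points) and Cry2 (46 in PB115 and 76 in PB119, -33.8 points) stood toward PB119. Twist2 (35 in PB115 and 50 in PB119, -25.6 points) did so among 4 tied mesenchymal genes. The interval of the fragment share included the overall share for each of Gins2, Hes1, Ctsa, Clock, Cry2 and Twist2. Of 18 immune genes, 0 were tied to a pair, and Cd68 had a summit in PB119 alone. The median rank difference, -0.86 points over all tied genes, was 0.74 for ribosomal proteins, -0.03 for translation, -0.39 for nucleotide and polyamine synthesis, -0.49 for mitochondrial import, 1.23 for glycolysis, 0.66 for cell cycle genes and 0.67 for mitotic genes. It was 2.0 for the Myc and Max network, -0.75 for lysosome and autophagy, -0.24 for the clock and 2.49 for apoptosis. The lowest medians came from the lists with few tied genes, -5.95 points over 7 neuroendocrine and lineage genes and -7.20 over 4 mesenchymal genes.

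The lists differed more in which members had any summit at a gene end. Over all 21883 coding genes, 57 (0.26%) had one in PB115 alone and 2608 (11.9%) in PB119 alone, and 5115 in both. Those 2608 are 33.8% of the genes bound in PB119. Among the genes of a list bound in PB119, the share bound in PB119 alone was 0% of 38 for ribosome biogenesis, 2.22% of 45 for ribosomal proteins and 3.03% of 33 for translation. It was 20.0% of 30 for nucleotide and polyamine synthesis (among them Sms, Impdh1, Prps1, Prps2 and Rrm2) and 32.1% of 28 for cell cycle and replication (Ccnd2, Cdk2, E2f1, E2f2, Mcm2, Mcm7, Gins1, Pole and Rfc3). It was 33.3% of 15 for glycolysis (Pfkm, Aldoc, Tpi1, Eno2 and Ldhb) and 46.2% of 13 for mitotic genes (Bub3, Mad2l1, Ttk, Kif11, Ndc80 and Cdc20). The cell cycle and glycolysis shares lay near the 33.8% of all genes. Elsewhere the share was 0% of 11 for the Myc and Max network, 7.69% of 26 for mitochondrial import and 12.5% of 16 for the clock. For lysosome it was 21.1% of 19, for neuroendocrine and lineage genes 27.3% of 11, for apoptosis 40.0% of 10 and for mesenchymal genes 42.9% of 7. The lists differ in height too: the median summit of tied genes had 104.5 fragments in PB115 and 118.5 in PB119 for ribosome biogenesis, and 52 fragments in PB115 and 53.5 in PB119 for cell cycle genes. Height and the share bound in 1 line were not separated. Of the 57 genes bound in PB115 alone, 31 had a common peak, for example Npm1 and Eif5a (188 fragments in PB115, under a PB119 peak with 185), whose summit lay within 1000 bp of the gene end in PB115 and not in PB119.

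The PB119-only peaks of highest pileup at a gene end were at Sfi1 (107 fragments) and Eif4enif1 (91 fragments), where input was 19.7 and 7.50 times its genome-wide level. Next came Ndufc2 (a complex I subunit, 71 fragments), Sar1b (a GTPase of COPII vesicles, 70), Adgrl2 (an adhesion receptor, 68) and then Spag7, Stkld1 with its neighbour Surf4, Rer1 (retention in the endoplasmic reticulum), Nop53 (ribosome assembly) and Strn4, all with 65 fragments. Input at these 8 lay between 1.48 and 2.99 times genome-wide. The weakest PB115 summit listed held 24 fragments. A site missing from the PB115 list had no peak at the authors' cutoff, which does not show absence. Farther from gene ends, the highest were 2 in Sfi1 (187 and 107 fragments), 1 on chromosome 9 (92 fragments, 8.57 times input), 1 on chromosome 17 (84 fragments, 14.6 times) and 1 inside Cacybp (73 fragments, 1.71 times). Of the 6221 PB119-only peaks, 931 lay within 500 bp of a PB115 peak and 630 (10.1%) overlapped a PB120 peak, against 3764 of the 7306 PB119 peaks with a PB115 partner (51.5%).

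The 6221 PB119-only peaks had a median of 34 fragments (quartiles 30 and 40), against 43 in the whole PB119 list. The 169 PB115-only peaks had a median of 38 fragments (quartiles 33 and 42), against 49 in the whole PB115 list. At gene ends the highest were Ppfia3 (liprin alpha-3, with its neighbour Hrc, 51 fragments), Itgb1bp1 with Cpsf3 (44), Zbtb7b (a zinc finger regulator of T cells, 44), Stau1 (a double-stranded RNA binding protein, 42), Atp5l (an ATP synthase subunit, 42), Stmn1 (stathmin, 41), Snapc2 (a factor of small nuclear RNA genes, 41), Asic1 (an ion channel, 39), Atg2a (autophagy, 39) and Anapc16 with Ascc1 (38). Of these 10 genes, 6 had another summit at a gene end in PB119, leaving Zbtb7b, Stau1, Snapc2 and Atg2a. Farther away, the highest had 78 fragments on chromosome 8 (4.97 times genome-wide input), 56 on chromosome 15 (6.84 times), 56 inside Capn3 (1.44 times), 54 inside Vit (6.22 times) and 51 inside Pitpnm3 (1.90 times). Of the 169, 33 lay within 500 bp of a PB119 peak, and 30 (17.8%) overlapped a PB120 peak, against 3826 of the 7661 PB115 peaks with a PB119 partner (49.9%).

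Sites away from gene ends leaned toward PB115. In the common pairs, 4279 lay at a gene end, 1684 inside a gene and 874 outside genes, by the PB119 summit. At gene ends 133 pairs (3.11%) passed 25 points toward PB115 and 272 (6.36%) toward PB119, with a median difference of -0.78 points. Inside genes 8.19% stood toward PB115 and 5.23% toward PB119, and outside genes 9.15% toward PB115 and 2.29% toward PB119, with a median of 3.42 points there. PB115's share of the fragments was 46.2% at gene ends, 47.4% inside genes and 48.1% outside. The medians kept their order when pairs were ranked by fold or by pileup minus background. Gene ends held 23.1% of PB115-only peaks and 55.2% of PB119-only peaks, against 62.7% of pairs. Among PB119 peaks of 50 to 69 fragments, 49.5% of the 281 without a PB115 partner (43.7 to 55.3) and 61.7% of the 2468 with one (59.7 to 63.6) lay at a gene end. Among those of 19 to 29 fragments the shares were 60.7% without a partner and 59.1% with one.

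Base composition moved with the same difference. In 2028 pairs with a promoter window, the rank correlation of GC content and rank difference was -0.203, while that of GC content and log2 input ratio was 0.00735; all pairs share both libraries. In 4 groups from the lowest to the highest GC content, the median difference was 1.24, 0.17, -0.75 and -4.57 points. The share standing toward PB115 was 4.73%, 4.73%, 2.56% and 1.78%, and toward PB119 3.16%, 3.94%, 7.50% and 9.07%. Median GC content was 61.3% in windows toward PB115 and 67.0% in windows toward PB119, against 64.0% over all windows with both summits. With 1 library per line, a difference between the lines and a difference between these libraries cannot be told apart.

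**Figure D4:**
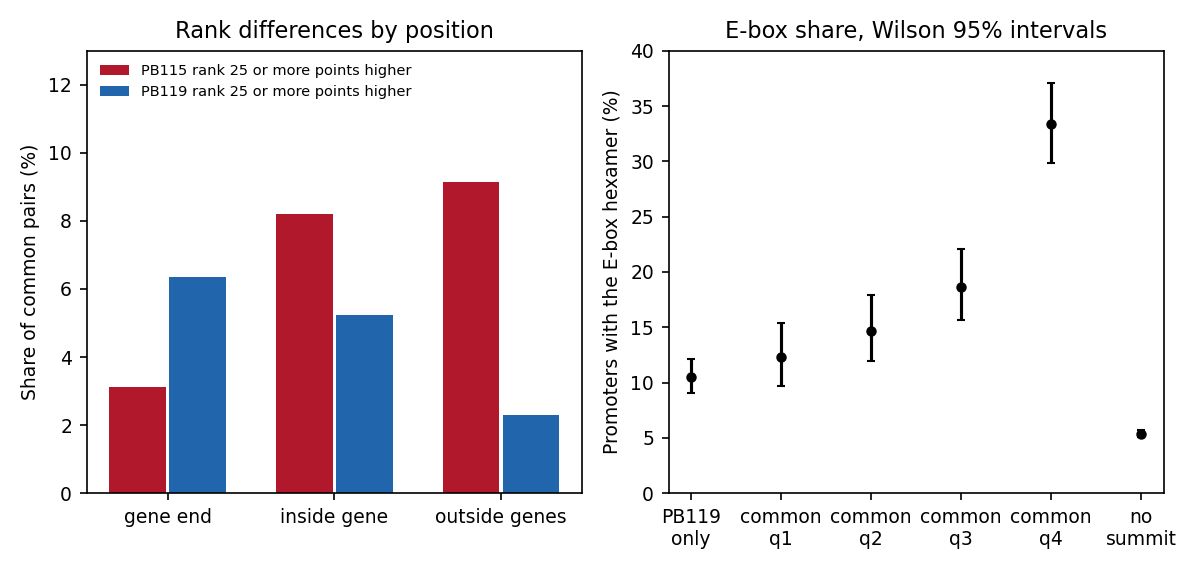
Left, bars give the share of common pairs (in %) at least 25 points toward PB115 or PB119, by position relative to genes. Right, points give the share of promoter windows with CACGTG (in %, Wilson 95% intervals) for PB119-only summits, common pairs in 4 rank groups (q1 lowest) and windows with no summit. Outside genes 9.15% of pairs stand toward PB115 and 2.29% toward PB119, and the CACGTG share is 33.4% in the highest of 4 rank groups of common pairs and 5.39% in windows with no summit.

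The share of promoters with an E-box differed more by height than by line. CACGTG was present in 20.5% of the 2288 windows that held both summits of a common pair, with 19.8% of 81 windows toward PB115 (12.5 to 29.7) and 14.7% of 129 toward PB119 (9.64 to 21.9). It was in 3 of 19 windows with a PB115-only summit, in 10.5% of 1548 with a PB119-only summit and in 5.39% of 16527 with none. In the 4 groups by mean rank the share was 12.3%, 14.7%, 18.6% and 33.4%, lowest group first. In 374 pairs whose window had a single CACGTG, the summit lay a median of 25.5 bp from it in PB115 and 27.5 bp in PB119, and within 25 bp in 49.2% of pairs in PB115 and 47.9% in PB119. The PB115 summit was the closer in 176 pairs, the PB119 summit in 187, and 11 were equal.

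Summits lay close together. The signed shift, PB115 minus PB119, had a median of 0 bp (quartiles -23 and 22) and a median size of 23 bp (quartiles 10 and 45 bp). Summits lay within 50 bp in 78.4% of pairs (77.4 to 79.3) and more than 200 bp apart in 211 (3.09%). The share within 50 bp was 63.4%, 77.2%, 82.9% and 90.2% in the 4 groups by mean rank, lowest first. The longest shifts at gene ends were at Gab1 (a signalling adaptor, -727 bp, 33 fragments in PB115 and 46 in PB119), Cep68 (a centrosome protein, -610 bp, 56 in PB115 and 72 in PB119), Dcun1d3 with Lyrm1 (a regulator of cullin neddylation, -592 bp, 43 in PB115 and 39 in PB119), Xxylt1 (a xylosyltransferase, 585 bp, 40 in PB115 and 48 in PB119) and Arhgap35 (a GTPase regulator, -549 bp, 62 in PB115 and 80 in PB119). The PB119 peak at each of these 5 was at least 747 bp long. In 3974 pairs both summits lay within 1000 bp of the nearest annotated start. They lay a median of 9 bp upstream of it in PB115 and 4 bp upstream in PB119.

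**Figure D5:**
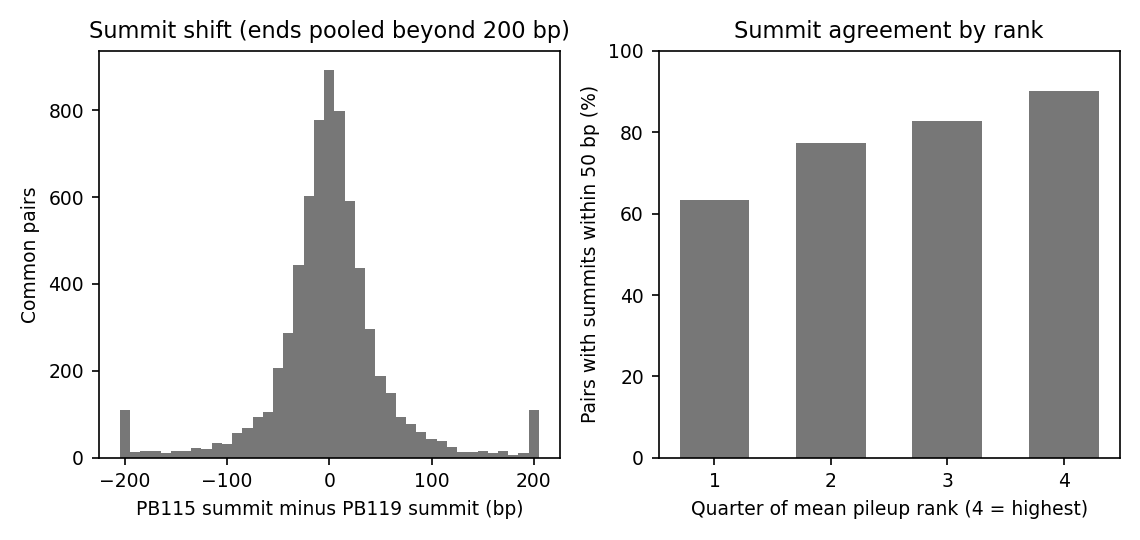
Left, number of common pairs by signed summit distance (PB115 minus PB119, in bp), with distances beyond 200 bp pooled in the end bars. Right, share of pairs (in %) with summits within 50 bp in 4 groups by mean rank. The distances have a median of 0 bp, and the share within 50 bp is 63.4% in the lowest group and 90.2% in the highest.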

How the data were processed

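The authors' peak lists came from c-Myc ChIP libraries of PB115 and PB119, each called against the input of its line, 1 library a line. Bowtie, SAMtools, MACS2 and build mm10 stand in the submitters' processing notes. Per the file headers, the settings were MACS 2.1.0.20140616, a p-value cutoff of 1e-10 and 1 tag kept per position. The deposited pileup is a signal, scaled to input depth. Dividing out the scaling gave whole fragments, within 0.02, at all peaks. The deposited fold is a ratio over local input with 1 added, from which input was recovered. The deposited −log10 p-value was used in a stricter alternative, and the deposited −log10 q-value, which the headers state was not calculated, was not used.

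Overlap of 1 bp or more gave pairs, and ranks are percentiles of pileup over the common pairs. Shares carry Wilson intervals, fragments exact Poisson intervals and a pair's fragment share an exact Clopper-Pearson interval, all at 95%. Python 3.11.15, pandas 2.3.3, numpy 2.4.6, scipy 1.17.1 and matplotlib 3.10.9 were used, and the steps were tested on simulated data. Gene ends within 1000 bp came from a RefSeq gene table of GRCm38.p6 without strand, and sequences from RefSeq promoter windows of the same assembly, which cover 17491 of 21883 coding genes. Neighbouring genes can share a site.

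Named are the 12 genes with the largest rank difference in each direction, the 10 highest PB115-only and PB119-only peaks at gene ends and the 5 of each elsewhere, in each gene list the 3 largest differences and the highest mean rank as far as needed, the 5 longest summit shifts and the 5 highest mean ranks. Genes listed as bound in 1 line are members of the lists counted. A few of these genes are not reported here. Klf16, E2f3, Npm1, Eif5a, Rn18s-rs5, Gars and C1qbp were chosen after their values were seen. The members and lists were chosen with earlier results of these data known.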

Additional observations from a re-analysis of the deposited data

How the results depend on the processing

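No paired analysis was possible because each line had 1 ChIP library and no test was run. Against the values reported, 97.8% of PB115 peaks and 54.0% of PB119 peaks, the shares with a partner were 77.6% of PB115 and 44.9% of PB119 at a reciprocal overlap of 50%, 85.9% of PB115 and 81.1% of PB119 with lists of equal length, and 84.9% of PB115 and 49.1% of PB119 with summits within 100 bp. At p of 1e-20 or less in both lists the PB119 share was 50.9%. Pairs passing 25 points numbered 812 toward PB115 and 794 toward PB119 when ranked by fold, and 9 toward PB115 and 1999 toward PB119 with ranks over whole lists. They numbered 233 toward PB115 (5.18%) and 259 toward PB119 (5.75%) of 4502 pairs with relative input held alike between the lines. The rank correlation was 0.702 by fold. Summits lay within 50 bp in 80.1% of pairs at a reciprocal overlap of 50% and in 80.8% of pairs with both peaks under 500 bp. At p of 1e-20 or less, 53 PB115-only and 3468 PB119-only peaks were left. Leaving out peaks over 5 times genome-wide input, an alternative chosen after seeing the data, left 167 PB115-only and 6204 PB119-only peaks. None of the 24 genes with the largest rank differences reversed. The authors' cutoff sets the depth limit: a weak site can be occupied and unlisted.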
